A study of Mus musculus with 141 samples.

Results

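The 38 genes described here are interferon-stimulated antiviral genes: transcripts that cells raise when interferon reaches them, or when cytoplasmic sensors meet viral RNA or DNA. They were taken by name from a table of 46517 genes, and all 38 were present and passed the filter on low values. The list holds RNA sensors (Ifih1, Ddx58, Dhx58) with the nucleic acid sensor Zbp1, and the transcription factors Irf7, Irf9 and Irf1. It also holds the effectors that degrade viral RNA, block translation or keep virions at the membrane. Their levels were measured by RNA sequencing in naive CD4 T cells, which were sorted as CD4+CD25-CD44lo. The mice were of the inbred strain C57BL/6, and spleen and lymph nodes were the source. Cells were taken before culture (naive, 0 h) and at 9 times from 0.5 to 72 h on plates coated with antibodies to CD3 and CD28, which all cultured groups share. Courses 1 to 3 were cultured with no cytokines or with IL6 and TGFb, cytokines that together start Th17 differentiation. Courses 4 to 6 received IL6 and TGFb plus IL1b, plus IL21, or plus both, with no culture free of cytokines and their own naive group. Each of the 47 groups had 3 libraries. The labels call them biological replicates; the age and sex of the mice, and whether animals were pooled or shared between groups, are not given in the sources used here.

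Interferons of type I bind a receptor built from IFNAR1 and IFNAR2, whose kinases JAK1 and TYK2 switch on the factor ISGF3, which contains IRF9 and binds the interferon-stimulated response element (ISRE) of most antiviral genes, while IL6 sends STAT3 dimers to the shorter GAS element. Many members act in the pathway itself: IRF7 raises interferon alpha, ISG15 is a ubiquitin-like tag, and USP18 removes that tag and damps the type I receptor. Naive T cells are known to keep a low, tonic level of many such transcripts without infection.

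The promoters of some members hold matches to the core letters of these elements, and 6 such stretches are printed here. RefSeq promoter windows on GRCm38.p6 were matched for 27 of the 38 members, and the 250 bases before the start site were searched on both strands. The ISRE core was searched as GAAA, any 2 bases, and GAAA again. It stood in 9 of those 27 members (33.3%), against 3.46% of the 27025 genes searched. A gene counted when any of its promoter windows matched. The GAS element was searched as TTCNNNGAA and stood in 6 of 27 (22.2%), against 8.13% of all; its letters can overlap an ISRE core. The 9 with an ISRE core were Bst2, Ifit1, Ifit1bl1, Ifit3, Isg15, Oas1a, Oas3, Rsad2 and Trim30a. The 6 with a GAS element were Bst2, Eif2ak2, Ifit2, Irf1, Isg20 and Oas1a, so that Bst2 and Oas1a held both. A match is a run of letters, not a shown binding site. Capitals mark the match, read 5′ to 3′ on the gene's strand; a core on the other strand reads as TTTC, any 2 bases, TTTC.
Isg15: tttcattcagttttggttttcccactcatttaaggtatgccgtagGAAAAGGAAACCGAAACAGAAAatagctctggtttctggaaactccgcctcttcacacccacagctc
Ifit1: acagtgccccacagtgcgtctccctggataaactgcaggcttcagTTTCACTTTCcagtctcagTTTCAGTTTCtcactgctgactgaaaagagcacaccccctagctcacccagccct
Ifit3: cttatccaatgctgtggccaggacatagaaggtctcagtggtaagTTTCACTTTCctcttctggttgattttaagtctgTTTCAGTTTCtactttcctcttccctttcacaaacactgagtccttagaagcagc
Rsad2: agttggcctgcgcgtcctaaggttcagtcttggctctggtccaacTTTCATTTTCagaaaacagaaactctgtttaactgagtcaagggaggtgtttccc
Oas3: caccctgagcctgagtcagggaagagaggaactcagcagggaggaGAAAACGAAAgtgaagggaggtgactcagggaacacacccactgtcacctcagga
Irf1: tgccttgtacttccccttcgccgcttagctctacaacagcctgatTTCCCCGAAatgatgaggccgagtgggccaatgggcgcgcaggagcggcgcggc
The Isg15 stretch is chr4:156200830-156200941 (minus strand) and holds 3 overlapping cores that begin 78 to 66 bases before the start site. Ifit1, chr19:34640740-34640858 (plus strand), holds 2 cores at 104 and 85 bases before the start, and Ifit3, chr19:34583328-34583461 (plus strand), 2 at 156 and 122 bases. Rsad2, chr12:26456518-26456617 (minus strand), and Oas3, chr5:120777680-120777779 (minus strand), hold 1 core each, at 120 and 75 bases. Irf1, chr11:53769879-53769977 (plus strand), is shown for its GAS element at 90 bases. These 6 genes are followed through the results.

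Levels are CPM, a gene's reads set to a common library total, scaled by TMM within courses 1 to 3 or within courses 4 to 6. Changes are differences of log2(scaled CPM + 0.5) ± SE from limma, with 3 libraries per group unless stated. A gene is called at a Benjamini-Hochberg adjusted p under 0.05 over all genes tested, and higher, lower, rose and fell refer to calls. The SE pools the spread of all groups of a fit. Beside each count of members stands the share of all genes tested that were called in that direction. CPM is a share of a library's reads, so that fewer cells with a transcript and less of it per cell cannot be told apart. Ifit1 and Ifit1bl1, Oas1a and its neighbours, and the Trim30 genes have close copies between which reads can be split.

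Libraries held 16 to 47.1 M reads (median 25.4 M). In courses 1 to 3, summed CD4 T cell markers (8 genes) stood at 5290 to 5650 CPM in naive cells, at 1590 to 2980 CPM at 24 h and at 3190 to 3770 CPM at 72 h. In courses 4 to 6 they stood at 4580 to 5520 CPM in naive cells and 2640 to 3180 CPM at 72 h. Naive libraries of courses 1 to 3 also held B cell markers at 483 to 535 CPM (8 genes), myeloid markers at 172 to 190 CPM (12 genes) and plasmacytoid dendritic cell markers at 123 to 139 CPM (6 genes), with no marker of these lists at 0. Plasmacytoid cells are the chief makers of interferon alpha, but a marker sum can rest largely on 1 gene. In courses 1 to 3 Pacsin1 led that list in each library at 48 and 72 h. In course 1 it held 35.7 of 36.2 CPM without cytokines at 48 h and 10.3 of 16.1 CPM with IL6 and TGFb at 72 h. How far the sum counts such cells in naive libraries was not tested. The 14 type I and III interferon genes together had 1220 reads among 3663 M in all libraries. Most of them, 659, came from Ifnk, which reached 0.787 CPM at most. Ifnb1, the interferon beta gene, had 42 reads with at most 3 in any library, and Ifnab reached 1.02 CPM in 1 library. Ifng, the interferon gamma gene, was at 0.463 ± 0.371 CPM (SD, n = 3) in naive cells. At 2 h it stood at 1.70 ± 0.681 CPM with no cytokines and 2.68 ± 0.417 CPM with IL6 and TGFb, a difference that was not called (0.57, adjusted p = 0.354). Levels of Ifng at other times, among them those late in culture, are not given here.

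The first comparison sets cultures stimulated through CD3 and CD28 without cytokines against naive cells taken before culture. No culture lacked these antibodies, so that stimulation and culture itself cannot be told apart. The antiviral genes fell almost as a body, within hours and deeply. At 0.5 h 4 of 38 members were lower than in naive cells, where 9.57% of all genes were; that count was 2 without course 1, 0 without course 2 and 2 without course 3. At 1 h 23 were lower (28.8% of all genes), at 2 h 35 (36.7%), and at 4, 6, 12 and 24 h 37 (38%, 37.4%, 36.9% and 36.8%). The median member changed by -0.29 at 0.5 h, -0.80 at 1 h, -2.05 at 2 h, -3.11 at 4 h, -3.44 at 6 h and -3.63 at 12 h, while the median of all genes tested was -0.04 at 2 h and -0.06 at 12 h. Many genes outside the list were lower too, as those shares say. The lowest group mean came at 6 h in 11 members, at 12 h in 13 and at 24 h in 8. Markers of other cell types were lower over the same hours. From naive cells to 2, 4 and 12 h without cytokines, B cell markers summed to 483 to 535, 58.4 to 80.5, 28.7 to 42.5 and 111 to 157 CPM. Myeloid markers summed to 172 to 190, 72.2 to 77.5, 34.9 to 40.2 and 20.1 to 22.8 CPM, and plasmacytoid markers to 123 to 139, 50.6 to 63.6, 64.6 to 72.9 and 23.1 to 30.1 CPM. The part of these cells in the members' fall was not tested.

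**Figure D1:**
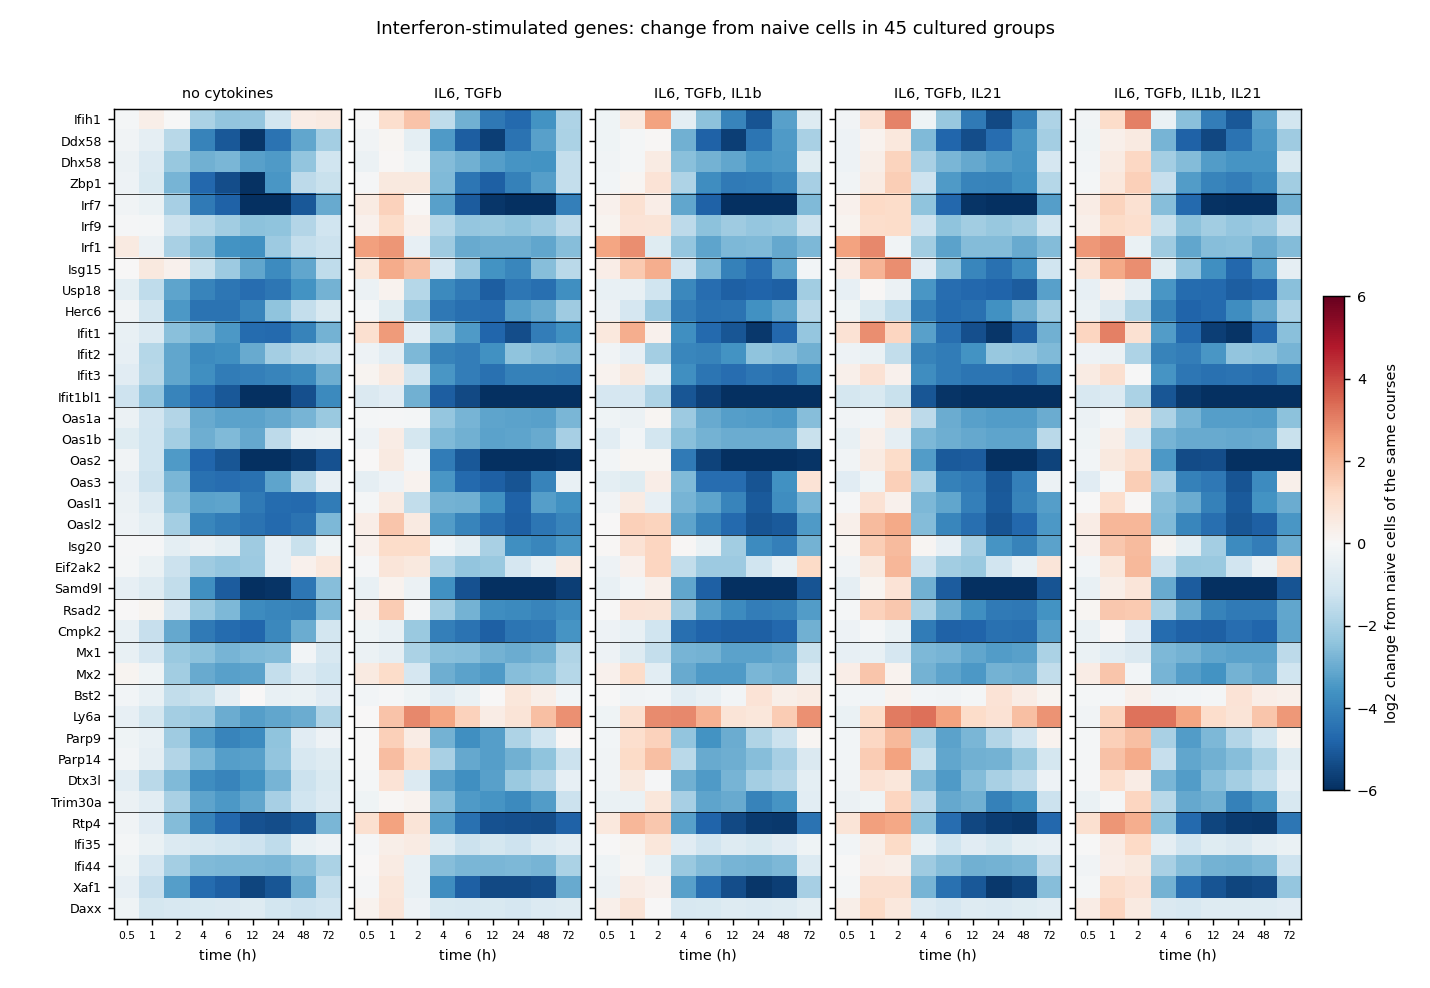
Heat map of the 38 members, in rows ordered by role, over the 45 cultured groups, a panel per condition with time in h along the axis. Colour is the log2 change from naive cells of the same courses, blue lower and red higher, saturating at 6. With no cytokines most rows are blue from 2 h on, and with IL6 and TGFb most rows are red or near white at 1 and 2 h before they turn blue.

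Irf7, the regulator that feeds interferon alpha production, shows the course of the fall. Its libraries stood at 101, 103 and 105 CPM in naive cells, at 24.8, 22.1 and 29.2 CPM at 2 h, and at 1.66, 0.721 and 1.15 CPM at 24 h. No library without cytokines from 2 h on reached a naive one. The changes were -2.01 ± 0.31 at 2 h (adjusted p = 2.62e-07) and -5.98 ± 0.31 at 24 h (adjusted p = 6.24e-21). At 2 h the largest falls were those of Ifit1bl1, a relative of Ifit1 (-3.98 ± 0.48, adjusted p = 6.48e-10), and the ISG15 ligase gene Herc6 (-3.43 ± 0.23). Next came Oas2, whose product makes the adenylate chains that switch on RNase L (-3.42 ± 0.35), the cell death gene Xaf1 (-3.29 ± 0.37), Usp18 (-3.17 ± 0.27) and Ifit3 (-3.14 ± 0.30). At 24 h they were Ifit1bl1 (-6.07 ± 0.48), Oas2 (-6.05 ± 0.35), Irf7, the translation restriction gene Samd9l (-5.87 ± 0.57), the receptor chaperone gene Rtp4 (-5.34 ± 0.41) and Xaf1 (-5.12 ± 0.37). Oas2 went from 71.8, 75.8 and 91.3 CPM in naive cells to 1.29, 0.325 and 0.684 CPM at 24 h. As 0.5 is added to each CPM before the log, a gene with a low naive level cannot show so large a fall. The order of falls thus depends in part on the naive level, here and at other times.

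Members did not fall in step. Among the 35 lower at 2 h were all 4 IFIT proteins, whose products bind viral RNA and block its translation, and all 6 members of the OAS family, with median changes of -3.14 and -2.28. The 3 members not lower at 2 h were Ifih1, which encodes the RNA sensor MDA5, Isg15, and Isg20, an exonuclease gene. Ifih1 stood at 40, 41.7 and 40.2 CPM in naive cells and 41.9, 38.5 and 41.5 CPM at 2 h, then at 9.1, 9.76 and 13.2 CPM at 4 h. Isg15 stood at 14.5, 18.4 and 20.3 CPM in naive cells and at 17.4, 14.8 and 36.1 CPM at 2 h (0.25 ± 0.50, adjusted p = 0.678), and fell to 0.774, 0.685 and 0.983 CPM at 24 h. Course 3 carried the high library at 2 h, and again at 4 h, with 19.2 CPM against 3.85 and 3.74 CPM for Isg15 and 14.1 against 1.75 and 1.67 CPM for Ifit1. Bst2, the gene of the membrane protein tetherin that holds virions at the cell surface, fell from 51.7, 58.5 and 61 CPM to 17.6, 18.8 and 24.9 CPM at 2 h. By 12 h, when the other 37 were all lower than in naive cells, it stood at 59, 56.3 and 56.1 CPM.

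From 24 to 72 h the level returned in part. At 48 h 33 members were still lower than in naive cells (34.9% of all genes) and at 72 h 31 (32.2%), with medians of -2.07 and -1.30. Against 24 h, 33 members were higher at 72 h and 0 lower, with 27% of all genes higher. With only the 6 libraries compared in the fit the count was 23, and 0 when course was also a block. Xaf1, Samd9l, Irf7 and the nucleotide kinase gene Cmpk2, named after their values were seen, rose most between these times (3.68, 3.31, 2.97 and 2.80). At 72 h Oas2 (-5.21 ± 0.35), the OAS-like gene Oasl1 (-4.18 ± 0.26), Ifit1bl1 (-3.83 ± 0.48), Irf7 (-3.01 ± 0.31), Ifit3 (-2.93 ± 0.30) and Ifit1 (-2.84 ± 0.62) remained the lowest. Eif2ak2, which encodes the translation-blocking kinase PKR, was 1 of 38 members above its naive level (33.2% of all genes), at 37.3, 48 and 48.2 CPM against 26.9, 28.2 and 28.8 CPM (0.65 ± 0.14, adjusted p = 7.92e-05). The 6 members called in neither direction at 72 h were Ifih1, Oas1b, Oas3, Isg20, Parp9 and Ifi35.

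The second comparison asks what IL6 with TGFb added to stimulation, time by time. The cytokine pair raised the antiviral genes early and for a short while. Against no cytokines at the same time, 2 of 38 members were higher at 0.5 h (0.476% of all genes), 31 at 1 h (4.57%) and 32 at 2 h (5.59%), and 0 were lower at these times. The median member differed by 0.24, 1.43 and 1.60. At 4 h the count was 7 (2.73%), at 6 h 1 (2.85%) and at 12 h 3 (5.41%), with medians of 0.34, 0.02 and -0.06. Within each course all 38 members were higher with the pair at 1 h, and 38, 37 and 38 at 2 h.

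Irf1, a transcription factor gene with a GAS element in its promoter, moved first. At 0.5 h it stood at 2176, 1176 and 1378 CPM with IL6 and TGFb against 416, 373 and 430 CPM without, and at 265, 286 and 292 CPM in naive cells. The 3 groups did not overlap, and the difference from no cytokines was 1.91 ± 0.21 (adjusted p = 4.63e-08). The other member higher at 0.5 h was Daxx, the gene of a nuclear regulator of cell death and chromatin (0.50 ± 0.10, adjusted p = 0.00249). The count of 2 was 1 without course 1 or without course 3. The other members found with a GAS element were not called at 0.5 h. At 1 h Irf1 was at 1829, 1780 and 1723 CPM against 231, 199 and 225 CPM (3.02 ± 0.21), and by 2 h at 261, 173 and 168 CPM against 75.4, 56.9 and 88.6 CPM (1.43 ± 0.21). At 2 h every library with the pair was below the naive ones and above those without cytokines.

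**Figure D2:**
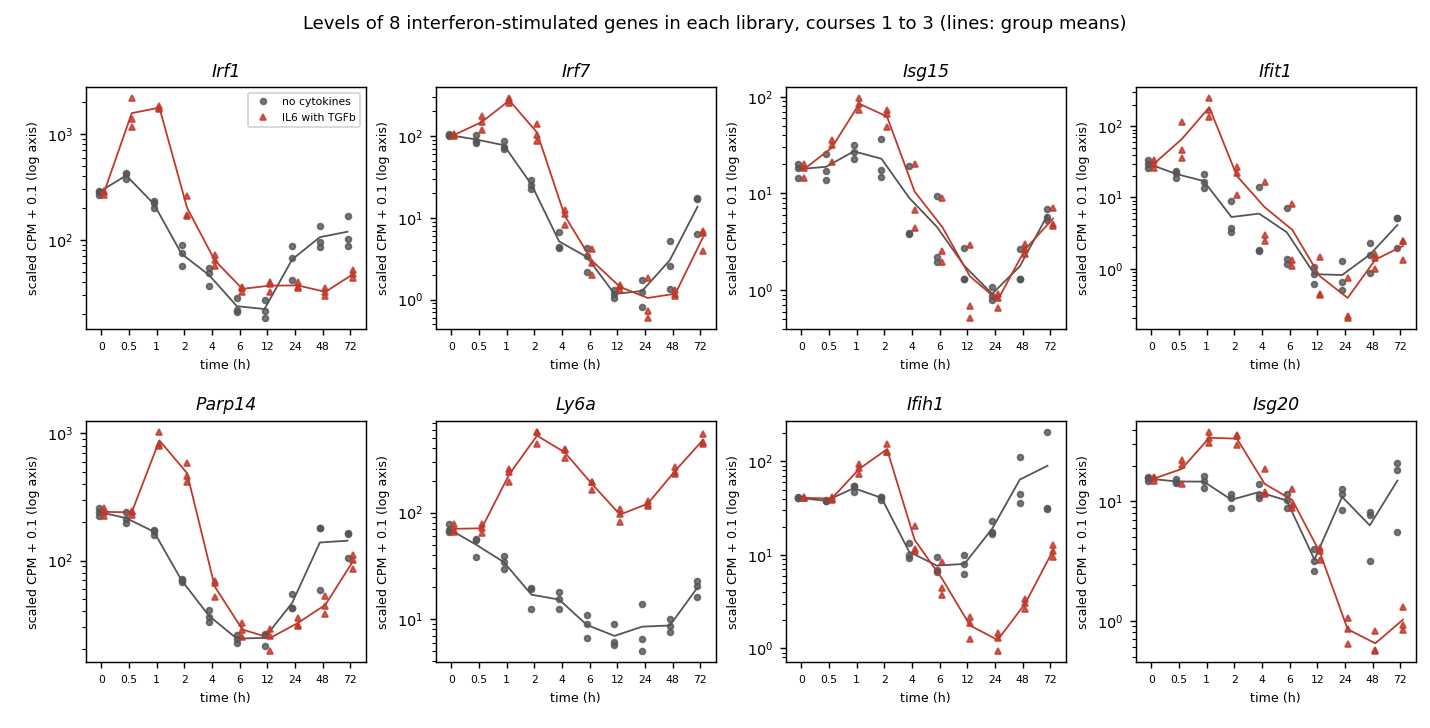
Scaled CPM plus 0.1 (log axis) of Irf1, Irf7, Isg15, Ifit1, Parp14, Ly6a, Ifih1 and Isg20 by time in culture, with no cytokines or with IL6 and TGFb. Points are libraries and lines join group means. The arms part at 0.5 h for Irf1 and by 1 h for Ifit1, Parp14 and Ly6a, Ly6a stays apart, and Ifih1 and Isg20 lie lower with IL6 and TGFb at 24 h.

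The other regulators followed at 1 h. Irf7 was at 289, 250 and 277 CPM with the pair against 70, 74.3 and 87.1 CPM without (1.81 ± 0.31, adjusted p = 3.14e-05). All 3 libraries lay above the naive ones, the highest of which held 105 CPM. Irf9, the DNA-binding part of ISGF3, was at 358, 288 and 361 CPM against 143, 136 and 148 CPM (1.23 ± 0.13, adjusted p = 3.4e-10). Neither pair of groups overlapped. At 2 h Irf7 differed by 2.08 ± 0.31 and Irf9 by 1.56 ± 0.13, and all 3 regulators were higher at both times.

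Among effectors Ifit1, whose promoter holds 2 ISRE cores, had the largest difference at 1 h. Its libraries were at 247, 136 and 170 CPM with the pair, 21.1, 13.3 and 16.3 CPM without, and 26, 33.5 and 29.4 CPM in naive cells (3.39 ± 0.62, adjusted p = 8.94e-05). At 2 h they were at 27, 10.7 and 22.1 CPM against 3.64, 3.17 and 8.85 CPM (1.87 ± 0.62, adjusted p = 0.0391). The groups stayed apart at both times. Ifit3, with 2 cores as well, was at 24.4, 11.6 and 15.2 CPM against 3.66, 3.31 and 2.68 CPM at 1 h, and naive cells held 9.81, 11.5 and 12 CPM. Next at 1 h came Rtp4 (3.09 ± 0.41), Irf1, the surface protein gene Ly6a, known as Sca-1 (2.73 ± 0.22), Dtx3l, an E3 ubiquitin ligase that works with PARP9 (2.44 ± 0.24), and Parp14, an ADP-ribosyltransferase gene (2.37 ± 0.22). Parp14 stood at 1028, 788 and 825 CPM against 172, 159 and 175 CPM. Usp18 (1.72 ± 0.27) and Isg15 (1.63 ± 0.50, adjusted p = 0.0334) were higher too, Isg15 at 85.1, 72.7 and 96.4 CPM against 27.1, 22.5 and 32 CPM. Rsad2, the viperin gene, was at 28.2, 20.9 and 26.5 CPM against 8.49, 11.6 and 8.81 CPM (1.34 ± 0.19, adjusted p = 1.01e-06). None of Rtp4, Irf1, Ly6a, Dtx3l and Parp14 was among the 9 members found with an ISRE core, with 11 members not searched. Bst2, which had a core, was not called at 1 h.

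By role, the 31 members higher at 1 h took in all 4 IFIT proteins (median 1.91), all 6 of the OAS family (1.48), all 4 PARP and E3 ligases (2.14) and 2 of 4 sensors (0.778). The 7 not called were Ifih1, Ddx58, Samd9l, Cmpk2, Mx1, Bst2 and the ligase gene Herc6. Ddx58, the gene of the RNA sensor RIG-I, was at 235, 186 and 228 CPM against 138, 133 and 134 CPM (0.67 ± 0.45, adjusted p = 0.559), without overlap. Ifih1 was at 93.2, 72.4 and 83.9 CPM against 54.5, 46.5 and 53.8 CPM, also without overlap. The SE pools all times, among them 72 h without cytokines, where Ifih1 stood at 207, 31.3 and 30.6 CPM. A gene not called at 1 h can thus still have differed. Mx1 differed by 0.50 ± 0.32 (adjusted p = 0.514); this GTPase gene carries a natural deletion in C57BL/6 mice. At 2 h Ifih1, Bst2 and Herc6 joined the members that were higher, with Ifih1 at 153, 125 and 127 CPM against 41.9, 38.5 and 41.5 CPM, while Ifit2 and Ifit1bl1 were no longer among them.

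At 2 h the order of members had changed. Ly6a was at 569, 573 and 441 CPM with the pair against 12.3, 18.9 and 19.3 CPM without (4.95 ± 0.22, adjusted p = 9.5e-22). It was followed by Rtp4 (3.36 ± 0.41), Zbp1 (3.36 ± 0.33), Oas2 (3.27 ± 0.35), Oas3 (2.95 ± 0.28) and Xaf1 (2.83 ± 0.37). Oas2 libraries stood at 81.6, 75.4 and 59.7 CPM against 5.59, 5.72 and 10.5 CPM, and naive ones at 71.8, 75.8 and 91.3 CPM. Libraries with the pair overlapped the naive ones for Oas2, and neither overlapped the cultures without cytokines. Oas3, with 1 ISRE core, was at 79.4, 60.4 and 50.2 CPM against 5.83, 8 and 9.38 CPM, and naive cells held 55.1, 54.4 and 53 CPM.

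Set beside naive cells instead, with which the comparison of cultures without cytokines also shares its 3 libraries, the cultures with IL6 and TGFb had 18 members higher and 2 lower at 1 h (27.6% and 29.1% of all genes). At 2 h they had 8 higher and 14 lower (33.6% and 37%), and at 4 h 35 lower (37.9%). With the pair 28 members had their highest cultured mean at 1 h, 5 at 2 h, 4 at 0.5 h and 1, Bst2, at 24 h. With no cytokines 28 members had theirs at 0.5 h, the first time sampled. Among the 18 above naive at 1 h were Irf1, Ifit1, Rtp4, Isg15, Parp14, Ly6a and Irf7, and the 2 below it were Herc6 and Ifit2.

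**Figure D3:**
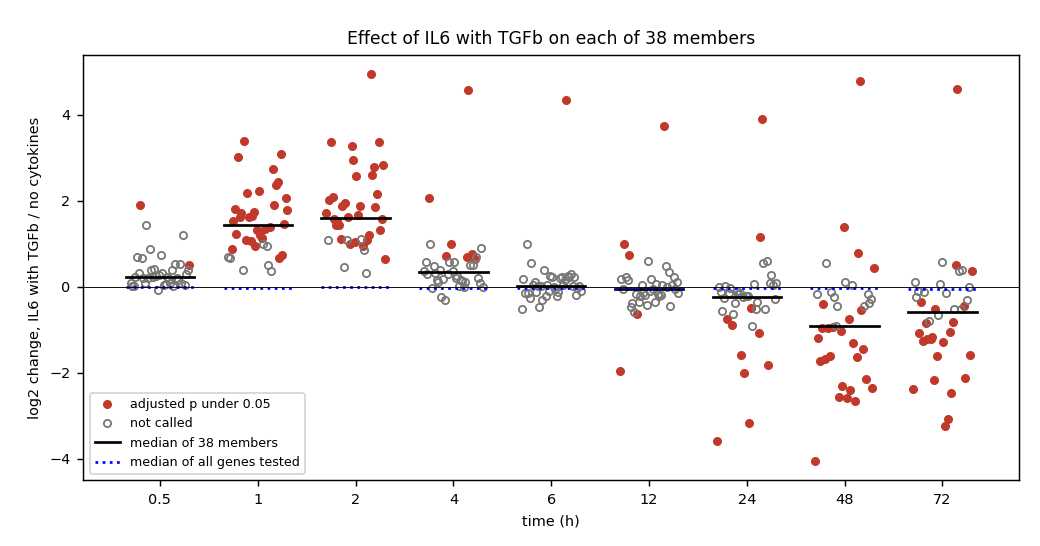
Log2 difference between IL6 with TGFb and no cytokines for each of the 38 members (points) at each time, filled where called, with bars for the median of the members and dotted bars for that of all genes tested. The bulk sits above 0 at 1 and 2 h (medians 1.43 and 1.60), around 0 from 6 to 12 h and below 0 at 48 and 72 h (medians -0.93 and -0.59), and Ly6a stays far above the rest from 2 h on.

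At 4 h fewer members were called between the arms, although 30, 29 and 33 of 38 were still higher with the pair in courses 1, 2 and 3. Irf7 was at 11.2, 8.02 and 12.4 CPM with the pair against 4.3, 4.22 and 6.61 CPM without (1.00 ± 0.31, adjusted p = 0.0568), with no overlap, and at 6 h at 2.68, 1.9 and 4 CPM against 2.1, 4.22 and 3.36 CPM, with overlap. The 7 members higher at 4 h were Ly6a (4.57 ± 0.22), Zbp1 (2.05 ± 0.33), Oas3 (1.00 ± 0.28), Parp14 (0.76 ± 0.22), Oas1a (0.71 ± 0.21), Bst2 (0.68 ± 0.16) and Trim30a. This count was 2 without course 2, 2 without course 3, and 13 when course was a block among the 6 libraries compared. At 6 h only Ly6a was called (4.35 ± 0.22), and at 12 h Ly6a (3.73 ± 0.22), Zbp1 (1.00 ± 0.33) and Irf1 (0.74 ± 0.21) were higher. At 12 h 2 members were lower (4.11% of all genes), Ifih1 (-1.96 ± 0.37, adjusted p = 0.000115) and Ifit2 (-0.63 ± 0.20). The 12 h counts were 1 higher and 1 lower without course 2 or without course 3, and 6 and 6 with the block among the 6 libraries.

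The later part of the course asks whether the effect of the pair kept its direction. Few members were still higher, and at 24 h 27 of 38 were called in neither direction. The counts of members lower at 48 and 72 h depended on which courses were kept, as given below. At 24 h 2 members were higher (13.5% of all genes) and 9 lower (12.6%), at 48 h 4 higher (27.6%) and 22 lower (25.4%), and at 72 h 3 higher (22.7%) and 20 lower (23.6%). The medians were -0.23, -0.93 and -0.59, against medians of all genes of -0.02, -0.03 and -0.05. Members were lower more often than higher at 48 and 72 h, where all genes were divided nearly evenly; with no TMM scaling the higher share of all calls was 38% at 48 h and 38.6% at 72 h in place of 52% and 49%. The change of the effect itself was tested: from 2 to 24 h it fell in 32 of 38 members (8.24% of all genes) and from 2 to 72 h in 33 (15.7%), and rose in 0. A fall of the effect includes a return towards 0 and need not be a reversal. From 2 to 24 h the largest such falls, named after their values were seen, were those of Ifih1 (-5.29 ± 0.53) and Oas3 (-4.97 ± 0.40).

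Ifih1 and Isg20 carried the clearest late loss, a word used here for a lower level with the pair than without cytokines at the same time. It does not mean a fall over time, as most members rose from 24 to 72 h with the pair. At 24 h Ifih1 stood at 1.18, 1.37 and 0.824 CPM with the pair against 17.3, 22.8 and 16.6 CPM without (-3.58 ± 0.37, adjusted p = 1.43e-10). At 48 h it stood at 3.26, 2.53 and 2.98 CPM against 110, 44.9 and 35.8 CPM (-4.06 ± 0.37), and at 72 h at 11, 9.41 and 12.6 CPM against 207, 31.3 and 30.6 CPM (-2.37 ± 0.37). The groups did not overlap at any of the 3 times, although the culture without cytokines in course 1 lay far above those of courses 2 and 3 at 72 h. Isg20 was at 0.535, 0.758 and 0.961 CPM against 11.4, 8.44 and 12.7 CPM at 24 h (-3.17 ± 0.28, adjusted p = 1.2e-12). At 72 h it was at 1.2, 0.745 and 0.825 CPM against 5.46, 18.4 and 20.7 CPM (-3.24 ± 0.28, adjusted p = 2.83e-13). Within each course and at each of 24, 48 and 72 h both genes were lower with the pair, by -1.24 to -4.88 for Ifih1 and by -1.81 to -4.00 for Isg20.

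At 24 h the other large losses were those of Oas3 (-2.01 ± 0.28), Trim30a, a gene of the TRIM ligase family (-1.82 ± 0.15), Oas1b (-1.59 ± 0.22) and the GTPase gene Mx2 (-1.09 ± 0.34). Oas1b is cut short by a stop codon in most laboratory strains. Irf1, which had led at 0.5 h, was at 34.9, 36 and 40.1 CPM with the pair and 41.7, 66.7 and 87.4 CPM without (-0.75 ± 0.21, adjusted p = 0.00654). The count of 9 lower was 5 without course 3, and the count of 2 higher was 4 without course 1. At 48 h losses were led, after Ifih1, by Mx1 (-2.66 ± 0.32), Isg20 (-2.59 ± 0.28), Oas1b (-2.58 ± 0.22), Samd9l (-2.40 ± 0.57) and Xaf1 (-2.35 ± 0.37). At 72 h, among members whose libraries did not overlap, Isg20 was followed by Cmpk2 (-2.47 ± 0.31), Ifih1, Oas1b (-1.61 ± 0.22), Xaf1 (-1.59 ± 0.37) and Irf1 (-1.27 ± 0.21). All 3 regulators were lower at 48 and at 72 h: Irf7 by -0.96 ± 0.31 and -1.09 ± 0.31, and Irf9 by -0.41 ± 0.13 and -0.37 ± 0.13.

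Courses differed in this late loss. With no cytokines, the mean log2 change of the 38 members from naive cells was -3.00 in course 1 at 48 h, against -1.88 and -2.28 in courses 2 and 3, and at 72 h -2.13 against -1.40 and -1.36. With the pair the courses lay close together, at -3.13, -3.27 and -3.32 at 48 h and at -2.21, -2.50 and -2.27 at 72 h. The mean difference between arms was -0.13 in course 1 at 48 h, with 20 members higher and 18 lower, but -1.39 in course 2 (4 and 34) and -1.04 in course 3 (7 and 31). At 72 h it was -0.0798 in course 1 (18 and 20), -1.10 in course 2 (6 and 32) and -0.905 in course 3 (9 and 29). The count of members lower was 28 at 48 h and 24 at 72 h without course 1, 14 and 11 without course 2, and 17 and 13 without course 3. With only the 6 libraries of 72 h in the fit it was 7. Samd9l shows the pattern, with 5.93, 130 and 114 CPM without cytokines at 72 h and 7.31, 3.11 and 5.07 CPM with the pair, so that course 1 differed by 0.282 and courses 2 and 3 by -5.17 and -4.37. Ddx58 was at 11.1, 96.1 and 105 CPM against 58.9, 48.1 and 51.2 CPM (0.11 ± 0.45, adjusted p = 0.856), and lower with the pair without course 1 (-1.01).

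**Figure D4:**
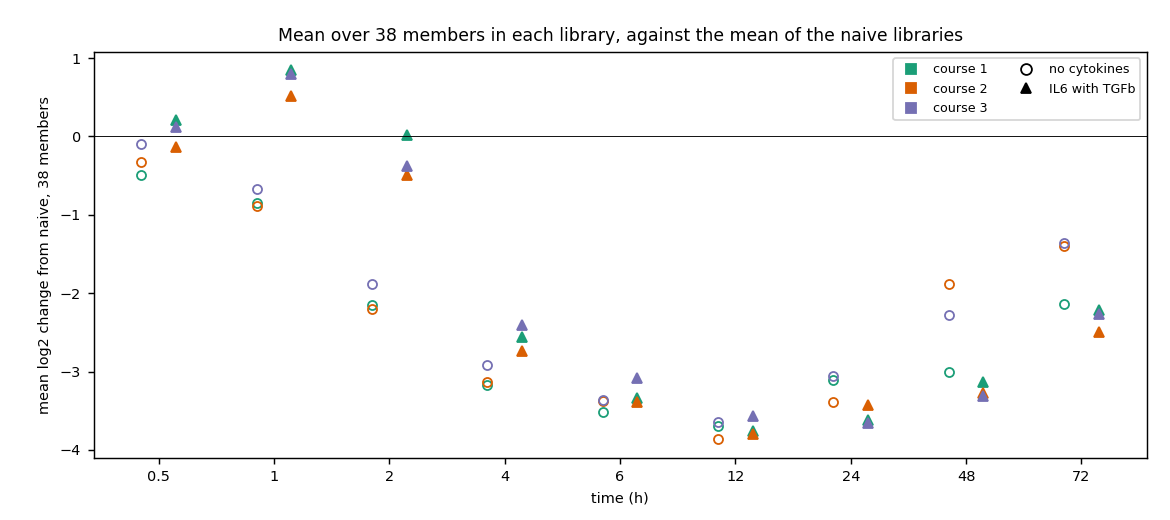
Mean log2 change from naive cells over the 38 members in each library of courses 1 to 3, by time, with no cytokines or with IL6 and TGFb. Each point is 1 library, colours are courses and shapes are the arms. Course 1 without cytokines sits at -3.00 at 48 h, near the libraries with the pair (-3.13 to -3.32), while courses 2 and 3 sit at -1.88 and -2.28.

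Markers of other cell types also differed between the arms from 24 to 72 h. Without cytokines B cell markers were lowest in course 1 at 48 and 72 h, while myeloid markers at 72 h were highest there. At 24 h B cell markers summed to 209 to 278 CPM without cytokines and 21.6 to 27.4 CPM with the pair, and myeloid markers to 37.5 to 39.9 CPM and 18 to 21.4 CPM. CD8 T cell markers (2 genes) were at 32.8 to 40.6 CPM against 1.98 to 2.64 CPM at 24 h, 11.6 to 16.2 CPM against 3.08 to 4.12 CPM at 48 h, and 9.75 to 13.2 CPM against 4.98 to 6 CPM at 72 h. Summed B cell markers in cultures without cytokines were at 118, 415 and 339 CPM in courses 1, 2 and 3 at 48 h and at 100, 464 and 394 CPM at 72 h, nearly all of it Ighm, the IgM heavy chain gene. With IL6 and TGFb they were at 11.8 to 13.7 CPM and 12.6 to 23 CPM. Myeloid markers without cytokines were at 72.1, 107 and 94.8 CPM at 48 h and 106, 66.3 and 71.1 CPM at 72 h, led by the lysosomal protease gene Ctss, against 30.5 to 34.9 CPM and 52.1 to 58.3 CPM with the pair. Plasmacytoid dendritic cell markers, led by Pacsin1, were at 36.2 to 43.6 CPM and 33.6 to 42.1 CPM without cytokines and at 9.87 to 12.4 CPM and 10.2 to 16.1 CPM with the pair. Lyz1 was at 0 in both arms at both times, S100a8 and Klk1 were at 0 without cytokines at 48 h, and Siglech and Klk1 were at 0 with the pair at 72 h. The part of these cells in the late difference was not tested. At 1 and 2 h, when the members were higher with the pair, no B cell or myeloid marker was called in either direction between the arms, and of the plasmacytoid list Ccr9 was lower with the pair at 2 h (-0.92). At 2 h plasmacytoid markers summed to 40.7 to 48.3 CPM with the pair and 50.6 to 63.6 CPM without. B cell markers summed to 48.6 to 61.6 CPM with it and 58.4 to 80.5 CPM without. Myeloid markers were the higher with the pair, at 79.1 to 89.6 CPM against 72.2 to 77.5 CPM, without overlap. The part of these cells in the early difference was not tested.

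Against naive cells the pair left 36 members lower and 2 higher at 24 h (38.3% and 37.4% of all genes) and 33 lower and 2 higher at 72 h (37.1% and 37.7%). From 24 to 72 h 27 members were higher (29.4%) and 1, Bst2, lower (27%). Oas3, named after its values were seen, returned most, from 0.993, 1.33 and 0.789 CPM at 24 h to 41.8, 38.2 and 39.9 CPM at 72 h, still below the naive 53 to 55.1 CPM. Rsad2 was not called between those times with the pair, and its libraries were at 0.3, 0.0621 and 0.206 CPM at 72 h against 1.2, 0.742 and 0.845 CPM without cytokines (-1.05 ± 0.19, adjusted p = 1.7e-05). The levels with the pair lie below the 0.5 CPM added before the log, which shrinks this change. Isg15 was not called late in culture, at 4.5, 4.72 and 6.98 CPM with the pair and 6.79, 5.16 and 5.66 CPM without at 72 h (-0.13 ± 0.50, adjusted p = 0.858), with overlap.

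Ly6a went against the rest. From 2 h on it stayed higher with the pair at every time, by 3.73 to 4.95. At 24 h it was at 121, 114 and 128 CPM against 4.86, 6.46 and 13.9 CPM, and at 72 h at 545, 459 and 440 CPM against 20.4, 15.9 and 22.7 CPM (4.59 ± 0.22, adjusted p = 5.39e-22). All libraries of the 2 arms stayed apart at these times, and course-level differences were 3.16 to 4.90 from 24 to 72 h. Bst2 was the other member higher at 24 h, at 83.4, 93.1 and 101 CPM against 36.4, 42.2 and 46.5 CPM (1.14 ± 0.16, adjusted p = 1.06e-07). At 48 h Oasl1 (1.39 ± 0.26), Bst2 (0.78 ± 0.16) and Daxx (0.43 ± 0.10) were higher beside Ly6a. At 72 h Daxx (0.37 ± 0.10) and Bst2 were, although Bst2 overlapped between arms and was lower with the pair in course 1 (-0.251).

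The other set of courses asks what IL1b and IL21 add to IL6 and TGFb. Naive cells of courses 4 to 6 did not differ from those of courses 1 to 3 in any member (0 of 38 called, changes of -0.15 to 0.26, with 0.144% of all genes higher and 0.00652% lower; 0 at an unadjusted p under 0.05). Against their own naive cells at 2 h, the cocktail with IL1b had 15 members higher and 8 lower (33.6% and 39.4% of all genes). The cocktail with IL21 had 25 and 5 (33.8% and 38.8%), and that with both 26 and 7 (34.3% and 39.6%). These 3 comparisons share their naive libraries.

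Set against each other within their courses, the cocktails had few members called, with the largest median difference at 2 h and the most calls at 72 h. With IL1b 5 members were lower than with IL21 at 2 h (0.175% of all genes) and 0 higher, and all 38 lay below 0, with a median of -0.62 and 33 at an unadjusted p under 0.05. Oas2 was at 91.1, 117 and 85.7 CPM with IL1b, 197, 212 and 174 CPM with IL21 and 167, 217 and 142 CPM with both. Every library with IL21 lay above every library without it. The difference between IL1b and IL21 was -0.99 ± 0.20 (adjusted p = 0.0108), and Dtx3l (-0.76 ± 0.16), Daxx (-0.60 ± 0.13), Irf1 (-0.50 ± 0.12) and Ifi35 (-0.44 ± 0.10) were lower too. At 4 and 12 h Oas2 was again lower, the 1 member called (0.0336% and 0.00673% of all genes), by -0.92 ± 0.20 and -0.98 ± 0.20.

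**Figure D5:**
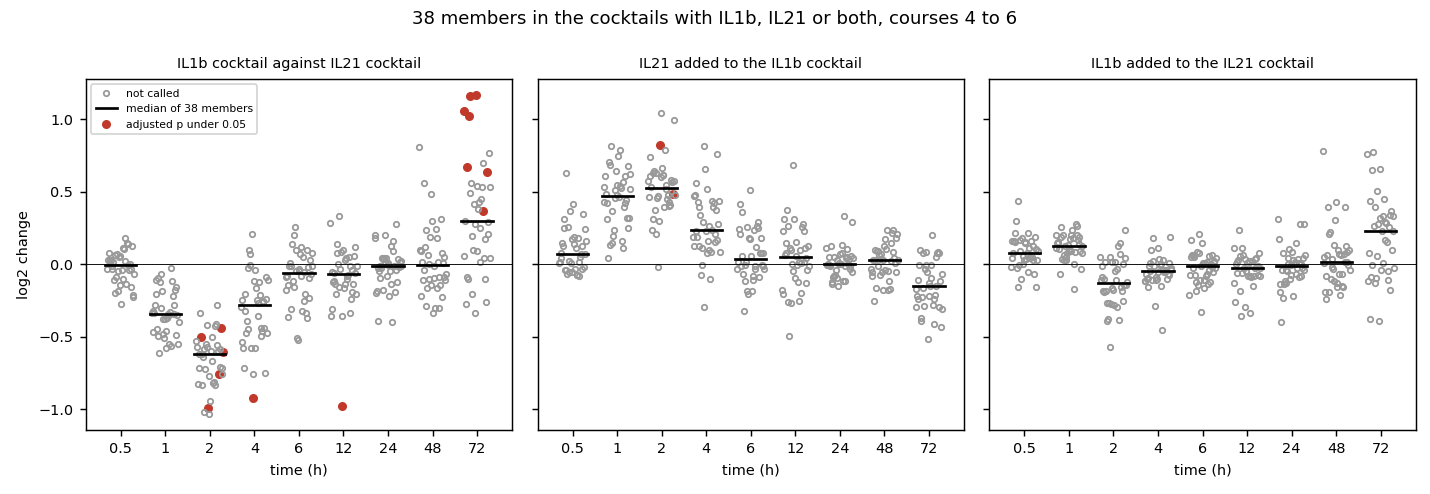
Log2 differences between the cocktails of courses 4 to 6 for each of the 38 members (points) by time, for the IL1b cocktail against the IL21 cocktail, IL21 added to the IL1b cocktail, and IL1b added to the IL21 cocktail; filled points are called and bars are medians. At 2 h members lie above 0 when IL21 is added (median 0.53) and below 0 for IL1b against IL21 (median -0.62), and near 0 when IL1b is added (median -0.13).

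Adding IL21 to the IL1b cocktail raised 2 members at 2 h (0.209% of all genes), Oas2 (0.83 ± 0.20, adjusted p = 0.0486) and Ifi35 (0.48 ± 0.10, adjusted p = 0.012). The median was 0.53, and 28 members were higher at an unadjusted p under 0.05. At the other 8 times 0 members were called by limma, where at most 0.0202% of all genes were; at 1 h 23 were higher at an unadjusted p under 0.05 (median 0.47). Over the 9 times edgeR called 4 and DESeq2 9. Adding IL1b to the IL21 cocktail gave 0 calls at every time in limma, edgeR and DESeq2 fitted to all libraries of these courses. The share of all genes called was largest at 72 h (2.14% higher and 2.08% lower). With course as a block among only the libraries compared, limma called 6 members over the 9 times; same-course libraries correlated at 0.511 to 0.817 in this comparison at 72 h. At an unadjusted p under 0.05 the most members were 5 higher and 1 lower, at 72 h. The cocktail counts rest on few libraries: without course 4, 5 or 6 the 2 calls for added IL21 became 0, 11 and 0, and the 7 calls of IL1b below IL21 at 2, 4 and 12 h became 0, 2 and 0. With course as a block they were 6 and 12, and with the block among only the libraries compared 2 and 21.

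At 72 h the direction turned. With IL1b 7 members were higher than with IL21 (5.16% of all genes): Usp18, Isg15, Irf7, Bst2, Ifih1, Oas3 and Trim30a. Usp18 was at 6.11, 7.37 and 8.57 CPM with IL1b and 1.18, 3.53 and 5.71 CPM with IL21 (1.16 ± 0.28, adjusted p = 0.00295), and at 3.2, 7.41 and 6.66 CPM with both. Bst2 was at 77.3, 75.7 and 85.5 CPM against 53.3, 58.4 and 74 CPM (0.37 ± 0.12, adjusted p = 0.0374). Only these 2 of the 7 did not overlap between the cocktails. Isg15 (1.02 ± 0.32, adjusted p = 0.0293) and Irf7 (0.67 ± 0.21, adjusted p = 0.0267) overlapped, the course 4 library with IL21 being lowest for both, at 3.76 and 6.18 CPM. The count was 1 without course 4, 1 without course 5 and 7 without course 6.

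The cocktails and the pair alone were grown in different courses, so each was compared after its own naive level had been subtracted. At 2 h 18 members were higher with IL21 than with the pair alone (3% of all genes), 12 with both (1.29%) and 1 with IL1b, Parp9 (1.94%). The medians were 1.23, 1.05 and 0.52. Rsad2 was at 24.1, 43.5 and 24.2 CPM with IL21, 19, 50.9 and 24.3 CPM with both and 11.2, 6.9 and 6.36 CPM with the pair. Naive libraries were at 6.16, 16.3 and 7.9 CPM in courses 4 to 6 and 8.4, 8.07 and 8.84 CPM in courses 1 to 3. With this subtraction, Rsad2 differed by 1.70 for IL21 and 1.66 for both, and Cmpk2 by 1.85 and 1.55; these genes were named after their values were seen. A difference between the sets of courses that arose in culture cannot be told apart from that of the cytokines. Without course 1 the counts were 28 for IL21, 23 for both and 12 for IL1b, and without course 2 they were 11, 5 and 0. The count for IL21 was 11 without course 5, that for both was 6, 3 and 5 without course 3, 5 or 6, and that for IL1b was 0 without course 3, 4 or 6. At all other times 0 to 2 members were called.

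Genes of the same pathway outside the 38 were followed in lists. Of the Other interferon-induced genes, 42 of 46 tested, the pair raised 2 at 0.5 h (0.476% of all genes), 19 at 1 h (4.57%), 27 at 2 h (5.59%), 4 at 4 h (2.73%) and 0 at 6 h (2.85%). It left 9 lower at 12 h (4.11%), 23 at 24 h (12.6%), 31 at 48 h (25.4%) and 26 at 72 h (23.6%). Pml, the gene of a nuclear body protein, was higher with the pair early and late, by 2.17 at 1 h and by 1.64 at 72 h, while Trim12a turned from 1.30 at 2 h to -3.58 at 48 h. With no cytokines 24 of these 42 were lower than in naive cells at 1 h (28.8% of all genes), 32 at 2 h (36.7%), 36 at 12 h (36.9%) and 28 at 72 h (32.2%). Of 12 genes for Antigen processing and presentation, such as the immunoproteasome and peptide transporter genes, 9 were higher with the pair at 2 h (5.59% of all genes), 10 lower at 48 h (25.4%) and 11 lower at 72 h (23.6%). Tapbp, the tapasin gene, differed by 1.02 at 2 h and -1.88 at 48 h.

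Upstream of the members, Stat2 was at 117 ± 23.1 CPM with the pair at 2 h and 19.7 ± 1.71 CPM without (SD, n = 3; difference 2.53). Stat3, which IL6 activates, was higher by 2.48 at 2 h and still by 1.75 at 72 h, when Stat2 (0.27) was not called. Irf8, a factor gene not among the 38, was at 326 ± 28.5 CPM with the pair and 12.3 ± 3.70 CPM without at 1 h (4.70). The brakes Socs1 and Socs3 were higher by 1.86 and 2.40 at 1 h, and Socs3 by 2.34 at 72 h. Ifnar1, a chain of the type I receptor, was lower with the pair at 48 h (-1.42) and 72 h (-1.05), and not called at 1 or 2 h (-0.19 and -0.24). These genes were named after their values were seen.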

How the data were processed

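RNA of all libraries was sequenced. The submitters' processing notes name TopHat, HTSeq, mm9 and GRCh37; versions, the role of each and the strand of counting are not given in the sources used here. Deposited values are CPM, which the authors made for each library. All values (100%, tolerance 0.001) gave whole reads, which served edgeR and DESeq2 as alternatives; at 2 h, IL6 with TGFb against no cytokines, edgeR called 1662 genes and limma 1826. CPM were scaled by TMM and tested as log2(CPM + 0.5) with limma 3.58.1 (R 4.3.3, edgeR 4.0.16, DESeq2 1.42.0), keeping genes at 1 CPM or more in at least 3 libraries, in fits over courses 1 to 3, courses 4 to 6, or all. Only the limma fit of courses 1 to 3 was tested on simulated counts, for IL6 with TGFb against no cytokines at 2 h.

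The members and gene lists were chosen with earlier results of these data known. Fold changes with SE are given for the 6 called members with the largest change in each direction whose groups do not overlap, and for Irf7, Irf9, Irf1, Usp18, Isg15, Ifit1, Mx1, Rsad2, Ddx58 and Ly6a; others were named after their values were seen. Courses carry numbers shared between arms. Deviations of libraries with the same number correlated above 0.1 in all 3 courses between the arms at 0.5, 1, 2, 4 and 12 h, and not at 6, 24, 48 and 72 h; between the cocktails they did in all 3 comparisons at 4 and 72 h. The fits were set without a block, and blocked counts that moved by over 1.5 times stand beside the results at those times and otherwise in the closing section. P-values measure the spread between these libraries. Alternatives changed the filter, pseudocount, scaling, test, block and libraries.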

Additional observations from a re-analysis of the deposited data

Results flagged for a closer look

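Some differences between groups passed a test of the difference itself. The effect of IL6 with TGFb on the members changed with time: compared with 2 h, it was lower in 32 members at 24 h (8.24% of all genes) and in 33 at 72 h (15.7%). The effect of the cocktails at 2 h, each with its own naive level subtracted, was above that of IL6 with TGFb in 1 of 38 members with IL1b (1.94% of all genes, so near the background), 18 with IL21 (3%) and 12 with both (1.29%). Leaving out 1 course moved these counts to 0 to 12, 11 to 28 and 3 to 23.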

How the results depend on the processing

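Over the alternatives run, 0 named calls changed sign; of 258 calls 209 were kept with only the libraries compared. Of 242 in courses 1 to 3, 194 were kept without course 2. Of 16 between cocktails, only 1, 3 and 5 were kept without course 4, 5 or 6. Counts of members that moved by over 1.5 times were as follows. With no cytokines at 0.5 h, 4 lower became 2 with no filter or edgeR, 7 with a filter at 5 CPM, 8 with no TMM, 10 with only the libraries compared and 0 to 2 without a replicate. With IL6 and TGFb, members higher became 1 (only the libraries compared; 1 to 2 without a replicate) at 0.5 h, 4 (no filter; 2 to 5) at 4 h, 2 (DESeq2) and 3 (only the libraries compared) at 6 h, 1 to 4 at 12 h, and 4 (DESeq2, only the libraries compared; 2 to 4) at 24 h. Members lower became 1 (no filter) and 4 (only the libraries compared; 1 to 2) at 12 h, 5 to 11 at 24 h, 14 to 28 at 48 h, and 7 (only the libraries compared; 11 to 24) at 72 h. Ddx58 at 72 h reversed without replicate 1 (-1.01; up to 0.69 without another), where the low library without cytokines was left out.

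IL21 added became 1 (no filter, no TMM, pseudocount 0.1), 4 (edgeR), 9 (DESeq2), 0 (only the libraries compared) and 0 to 11 without a replicate. IL1b below IL21 at 0.5 to 12 h became 11 (5 CPM), 4 (pseudocount 0.1), 14 (DESeq2), 0 (only the libraries compared) and 0 to 2. At 72 h the 7 higher became 2 (no filter, DESeq2), 4 (pseudocount 0.1, edgeR), 0 (only the libraries compared) and 1 to 7. Beyond IL6 and TGFb at 2 h, IL1b became 0 (no filter), 2 (5 CPM), 4 (DESeq2) and 0 to 12, IL21 11 to 28, and both 3 to 23.

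With course as a replicate block and all libraries, IL21 added gave 6, IL1b below IL21 12, and IL1b beyond IL6 and TGFb 2. With the block and only the libraries compared, 0.5 h without cytokines gave 16 lower. IL6 and TGFb then gave 13, 6, 6, 5 and 1 higher at 4, 6, 12, 24 and 72 h, and 6, 12 and 4 lower at 12, 48 and 72 h. The rise from 24 to 72 h without cytokines gave 0, IL1b added 6 and IL1b below IL21 21. Members near or below 1 CPM, such as Rsad2 at 24 and 72 h, are limited by depth.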
